A study of Mus musculus with 6 samples.

Results

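The 39 leukocyte genes described here comprised Ly75, Cysltr2 and Fgl2 together with markers of macrophages, dendritic cells, lymphocytes and neutrophils, chemokines, and the second cysteinyl leukotriene receptor, Cysltr1. They were measured in heart ventricles of miR-499 transgenic (TG) mice and wild-type (WT) littermates at postnatal day 17, with 3 mice per group and 1 Affymetrix Mouse Gene ST array per mouse. For each gene the probe set with exactly 1 gene symbol in the platform annotation and the highest mean log2 value over the 6 mice was taken, which gave 39 of 39 genes, out of 19938 genes named in this way. Each member had 1 such probe set. TG mice carried miR-499 under the promoter of Myh6, the alpha-myosin heavy chain gene, which is active in cardiomyocytes and not in leukocytes, and the methods give FVB/NCrl as the strain of the injected embryos and line TG-17 as the line arrayed. All 6 mice were untreated, and WT mice differed from TG mice in the transgene as far as the labels and methods state. TG mice were of 1 transgenic line, so an effect of the insertion site cannot be told apart from that of miR-499. Each value is a log2 intensity of a probe set that the authors summarised with RMA.

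Leukocytes of the young heart are mostly resident macrophages, which clear dying cells, process antigen and lie among the cardiomyocytes and vessels, with smaller numbers of dendritic cells, lymphocytes and mast cells. Cysteinyl leukotrienes are lipid mediators made from arachidonic acid by leukocytes and sensed by the G protein-coupled receptors Cysltr1 and Cysltr2, the latter of which is also known from endothelium. Ly75 (DEC-205) is an endocytic receptor of the mannose receptor family that carries antigen into dendritic cells and is also found on some epithelia, and Fgl2 (fibroleukin) is a fibrinogen-like protein of macrophages, T cells and endothelium with prothrombinase and immunoregulatory activity. A whole ventricle holds few leukocytes, and in such bulk samples fewer cells of a type and less RNA per cell cannot be told apart.

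The mature miR-499-5p is shown because it is what the transgene encodes, with its seed, bases 2 to 8, in capitals. It lies at chr2:155622893-155622913 on the + strand of GRCm38.p6 in RefSeq.
mmu-miR-499-5p: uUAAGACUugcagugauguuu
The probe set of Mir499 served as the check of the labels. Its log2 values lay between 5.34 and 5.68 for WT and between 8.87 and 9.33 for TG, a log2 fold change of 3.67 (SE 0.15, adjusted p = 0.00772 by limma).

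The 250 bases before the RefSeq start of Ly75, Cysltr2 and Fgl2 are shown because these genes had the largest differences among the members. They lie in GRCm38.p6 at chr2:60383274-60383523 on the - strand (Ly75), chr14:73049115-73049364 on the - strand (Cysltr2) and chr5:21372423-21372672 on the + strand (Fgl2), and each is given 5′ to 3′ on its gene's strand.
Ly75: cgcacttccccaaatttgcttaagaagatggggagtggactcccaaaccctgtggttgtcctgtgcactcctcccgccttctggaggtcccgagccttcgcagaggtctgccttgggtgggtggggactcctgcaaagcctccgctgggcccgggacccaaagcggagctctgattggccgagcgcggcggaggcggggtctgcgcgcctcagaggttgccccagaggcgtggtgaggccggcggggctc
Cysltr2: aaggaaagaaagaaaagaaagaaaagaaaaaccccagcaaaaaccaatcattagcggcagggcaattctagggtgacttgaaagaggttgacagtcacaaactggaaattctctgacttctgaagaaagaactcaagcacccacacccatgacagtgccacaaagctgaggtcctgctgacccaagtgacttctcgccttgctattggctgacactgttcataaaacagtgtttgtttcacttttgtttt
Fgl2: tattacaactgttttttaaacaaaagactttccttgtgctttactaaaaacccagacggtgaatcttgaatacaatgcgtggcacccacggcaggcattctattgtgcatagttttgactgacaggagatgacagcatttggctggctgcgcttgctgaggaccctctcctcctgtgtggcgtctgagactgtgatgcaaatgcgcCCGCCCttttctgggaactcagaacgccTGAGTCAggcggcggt
Capitals mark matches to 6 searched motifs, and only the Fgl2 sequence held any. G and C made up 66.8% of the Ly75 bases, 42.8% of the Cysltr2 bases and 49.6% of the Fgl2 bases. The motifs were GAGGAA (the core of PU.1 sites, a factor of macrophages), the doublet bound by interferon regulatory factors, TGANTCA for AP-1 and GCGNGGGCG for EGR factors. The promoter elements searched were TATAAA, which positions the polymerase, and GGGCGG, bound by Sp1, and all searches covered both strands. In Fgl2, TGANTCA, which reads the same on both strands, began 16 bases before the start, and GGGCGG lay on the opposite strand 44 bases before it. Of 32851 promoters of the same length in the table, 6.75% held TGANTCA and 32.7% held GGGCGG. The PU.1 core GAGGAA was found in 11 of the 28 promoters of the 27 members in the table, those of C1qb, C1qc, Cd3e, Cd68, Cd79a, Cd8a, Itgam, Laptm5, Mrc1, Ptprc and S100a8, beside 23.3% of all promoters. Of the same 28, the GC box was in 8 (32.7% of all), TATAAA in 4 (12.4%), TGANTCA in 4 (6.75%), the interferon regulatory doublet in 1 (2.98%) and the EGR motif in 0 (4.7%). These matches are descriptions of the sequence and not sites of binding.

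Of the 39 genes, the probe sets of Ly75 and Cysltr2 were lower in TG ventricles, the latter from a dim signal, and none of the other 37 passed the test. The test was limma's log odds of differential expression (B) above 0 in a fit on all 35556 probe sets, where 0.01 of them were assumed to change. This is 2 of 39 lower and 0 of 39 higher, beside 0.211% of the 19938 genes lower and 0.13% higher, and 0.211% and 0.155% of all probe sets. The members were chosen with earlier results of these data known, so the 2 of 39 is not read as an excess over these shares. Among the 36 members other than Ly75, Cysltr2 and Fgl2, 0 passed in either direction. No member passed a Benjamini-Hochberg adjusted p under 0.05 in limma, which 2 of all probe sets did, while 5 members were lower and 5 higher at an unadjusted p under 0.05, beside 8.76% and 6.65% of all genes. The lowest adjusted p of a member was 0.174. When dim probe sets were left out of the fit, Ly75 had an adjusted p of 0.0498 by limma. That filter kept probe sets with a mean over all 6 mice above a log2 value of 6.35. Ly75 met it only through its WT values (6.78 to 6.91), as its TG values (6.02 to 6.26) lay below the cut, so this adjusted p is not taken as support. With listed probe sets only, Ly75 and Cysltr2 were just above the threshold (adjusted p = 0.0506 for each by limma).

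Ly75 had log2 values of 6.78, 6.91 and 6.80 in the WT mice and of 6.02, 6.12 and 6.26 in the TG mice. The groups did not overlap, and the lowest WT mouse lay 0.52 above the highest TG mouse. The mean fell by 0.70 on the log2 scale (SE 0.079, 95% confidence interval -0.89 to -0.51), which is 1.62-fold (B = 1.62, adjusted p = 0.174 by limma). Cysltr2 had log2 values of 4.55, 4.44 and 4.38 in WT and of 3.89, 3.93 and 3.82 in TG, again without overlap and with a gap of 0.45. The probe set fell by 0.57 on the log2 scale (SE 0.065, 95% confidence interval -0.73 to -0.42), or 1.49-fold (B = 1.61, adjusted p = 0.174 by limma). Its probe set was dim: its mean of 4.17 was the 31.9th percentile of the 1035 probe sets of olfactory receptors, genes of the sense of smell that served as a dim reference, so whether the ventricle expressed Cysltr2 cannot be read from its level, and the fold is that of the probe set and may not be the size of a change in the transcript. Ly75 stood at the 96.0th percentile of these by its mean of 6.48 over all 6 mice. In the whole member set, 28 of 39 lay above their 95th percentile, a log2 value of 6.35. All TG values of Ly75 lay below that value, so its fold too may not be the size of a change in the transcript.

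Both calls lay close to the threshold. Without WT replicate 2, B was -0.0065 for Ly75 and -0.025 for Cysltr2, so that no member passed, and Ly75 did not pass without TG replicate 2 (B = -0.24), nor Cysltr2 without TG replicate 3 (B = -0.016). The log2 fold change itself ranged from -0.76 to -0.64 for Ly75 and from -0.61 to -0.53 for Cysltr2 with 1 mouse left out. The median log2 fold change of the 3669 genes within 0.5 log2 units of Ly75 was -0.070, with a 5th percentile of -0.27. For the 1473 genes within 0.5 of Cysltr2 it was -0.044, with a 5th percentile of -0.25. Both genes were chosen with earlier results of these data known. Their place beyond these percentiles is therefore a description and not support for the calls.

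Fgl2 was the only one of these 3 genes higher in TG. Its log2 values were 9.65, 9.83 and 9.96 in WT and 10.24, 10.34 and 10.45 in TG, and every TG mouse lay above every WT mouse, by at least 0.28. The log2 fold change was 0.53 (SE 0.097, 95% confidence interval 0.29 to 0.77), a 1.44-fold higher level, with B = -0.53 and an adjusted p of 0.221 by limma, which did not pass. The 1507 genes within 0.5 log2 units of Fgl2 showed a median difference of 0.058 on the log2 scale, and their 95th percentile was 0.25. Since Fgl2 too was chosen with earlier results known, this comparison is a description and not support. Leaving out single mice gave log2 fold changes of 0.45 to 0.60 for Fgl2, which passed B above 0 in 4 of the 16 alternative analyses (listed probe sets only, intensity trend, replicate block and an assumed share of 0.05).

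**Figure D1:**
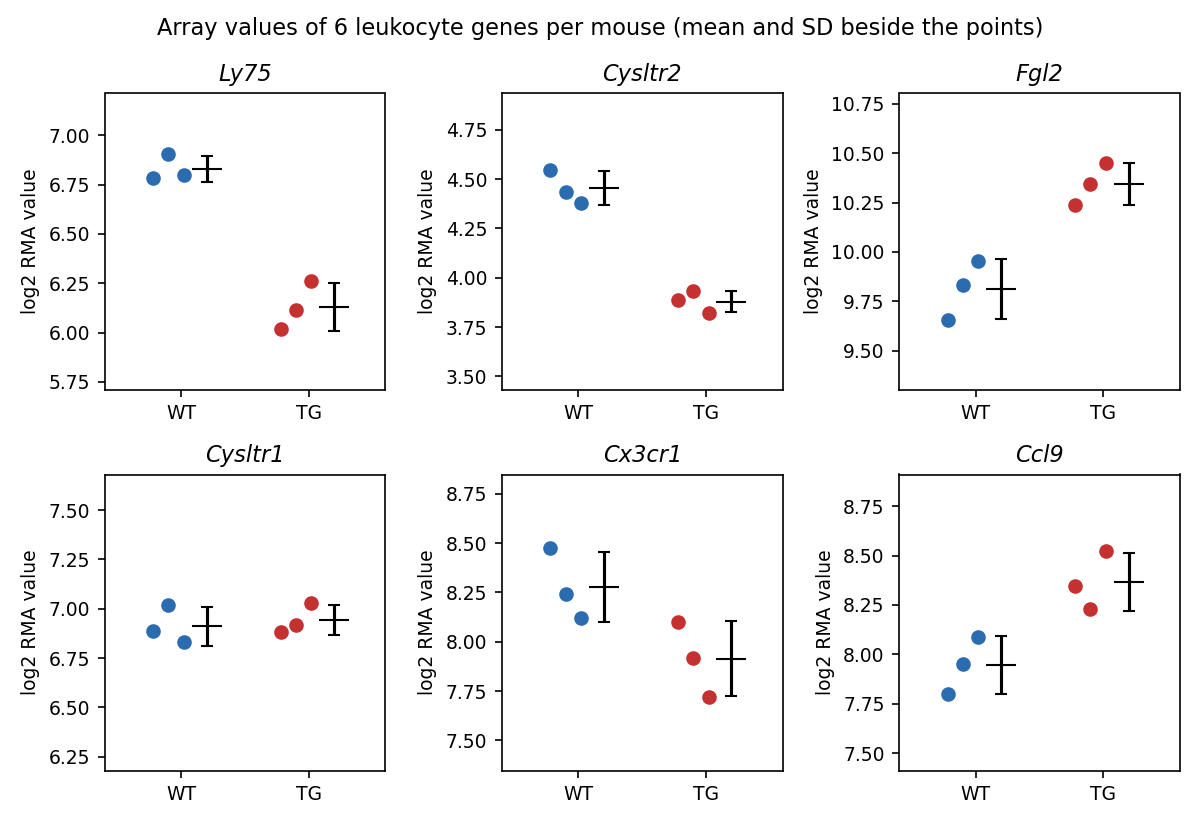
Log2 RMA value in each mouse for Ly75, Cysltr2, Fgl2, Cysltr1, Cx3cr1 and Ccl9, with WT in blue, TG in red and the group mean and SD beside the points. The axes are cut and differ between genes. Ly75 and Cysltr2 in TG lay 0.52 and 0.45 below the lowest WT mouse, and Fgl2 in TG lay 0.28 above the highest WT mouse.

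**Figure D2:**
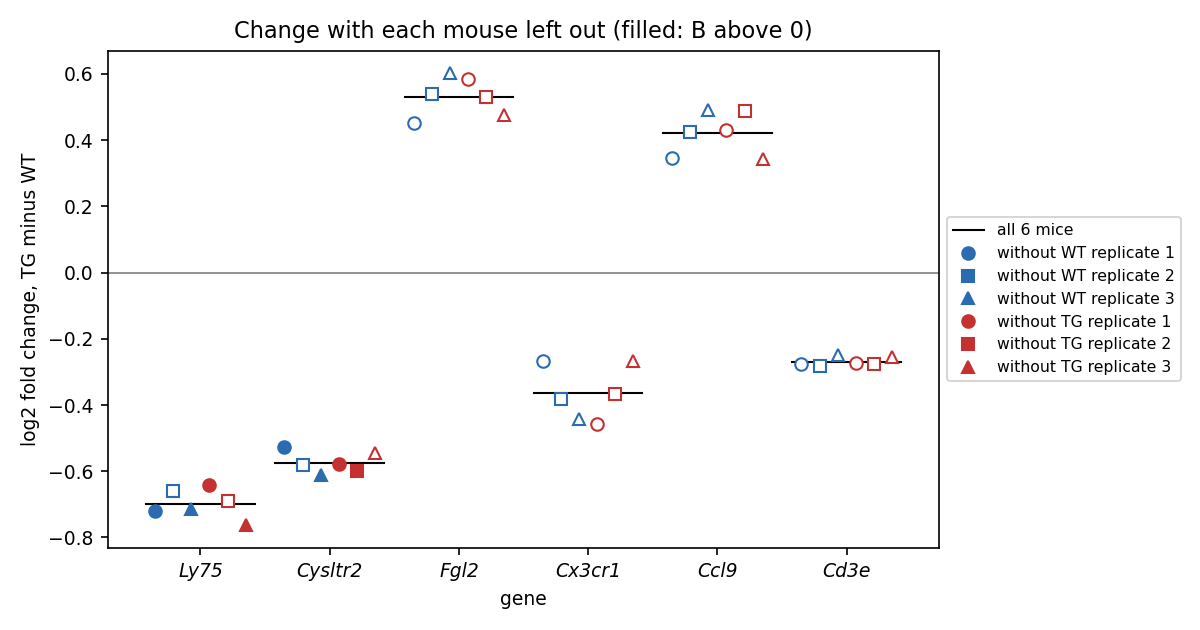
Log2 fold change of Ly75, Cysltr2, Fgl2, Cx3cr1, Ccl9 and Cd3e with each mouse left out in turn; filled symbols have B above 0 and bars show the value with all 6 mice. Every value of these 6 genes keeps its sign, and those of Ly75 lie between -0.76 and -0.64.

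The leukocyte markers were set beside the lower probe sets of Ly75 and Cysltr2. The macrophage genes came first, since macrophages are the main leukocyte of the heart. Of the 14 macrophage and monocyte members, 1 had an unadjusted p under 0.05 in each direction and 12 did not, beside 8.76% of all genes lower and 6.65% higher. Their median log2 fold change was 0.020, beside -0.018 for all 19938 genes. Csf1r, the receptor for colony-stimulating factor that macrophages need to survive, had log2 values of 9.04 to 9.08 in WT and 9.07 to 9.18 in TG (log2 fold change 0.058, SE 0.053). Adgre1 (F4/80), Cd163 and Mrc1, surface receptors of resident macrophages, had log2 fold changes of 0.0062, 0.054 and -0.032 with SEs of 0.073, 0.083 and 0.061. The complement genes C1qa, C1qb and C1qc, made in tissue by macrophages, were at 0.15, 0.15 and 0.035 (SE 0.074, 0.12 and 0.069), with overlapping groups. Lyve1, a hyaluronan receptor of resident macrophages and lymphatic vessels, was at 0.083 (SE 0.15), Cd68 (a lysosomal glycoprotein) at -0.12 (SE 0.096), Timd4, a phosphatidylserine receptor, at -0.051 (SE 0.067), and Itgam (CD11b) at -0.024 (SE 0.10).

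The macrophage genes that stood apart were Cx3cr1 and Cd14. Cx3cr1, the fractalkine receptor, had log2 values of 8.47, 8.24 and 8.12 in WT and of 8.10, 7.92 and 7.72 in TG, with the highest TG mouse just under the lowest WT mouse. Its log2 fold change was -0.36 (SE 0.13, unadjusted p = 0.0296 by limma), and the p exceeded 0.05 without WT replicate 1, WT replicate 2, TG replicate 2 or TG replicate 3. Cd14, a co-receptor for lipopolysaccharide, was at 6.90 to 7.03 in WT and at 7.13 to 7.18 in TG, apart and higher (log2 fold change 0.18, SE 0.055, unadjusted p = 0.0167 by limma), and its p exceeded 0.05 without WT replicate 1. Ccr2, the receptor of recruited monocytes, was dim, at 4.45 to 4.49 in WT and 4.26 to 4.53 in TG.

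The 4 pan-leukocyte and Fc receptor adaptor members had small differences, none of which passed the test. Ptprc (CD45), the phosphatase of all nucleated blood cells, was at 7.49, 7.48 and 7.47 in WT and at 7.53, 7.56 and 7.53 in TG, apart but with a log2 fold change of 0.058 (SE 0.046, 95% confidence interval -0.053 to 0.17). The signalling adaptors Tyrobp and Fcer1g were at 0.0085 (SE 0.066) and -0.14 (SE 0.094), and the lysosomal protein gene Laptm5 at 0.026 (SE 0.10). Of the 18 macrophage, monocyte, pan-leukocyte and adaptor genes, 17 lay within 0.2 log2 units of 0. So did 87.6% of all genes, and a small difference is thus common to most of the array. The list mean over these 18 genes spanned 7.72 to 7.83 among WT mice and 7.74 to 7.81 among TG mice. Mice of 1 group also differed among themselves: WT replicate 1 was the lowest WT mouse in 12 of the 18 genes and WT replicate 2 the highest in 9.

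**Figure D3:**
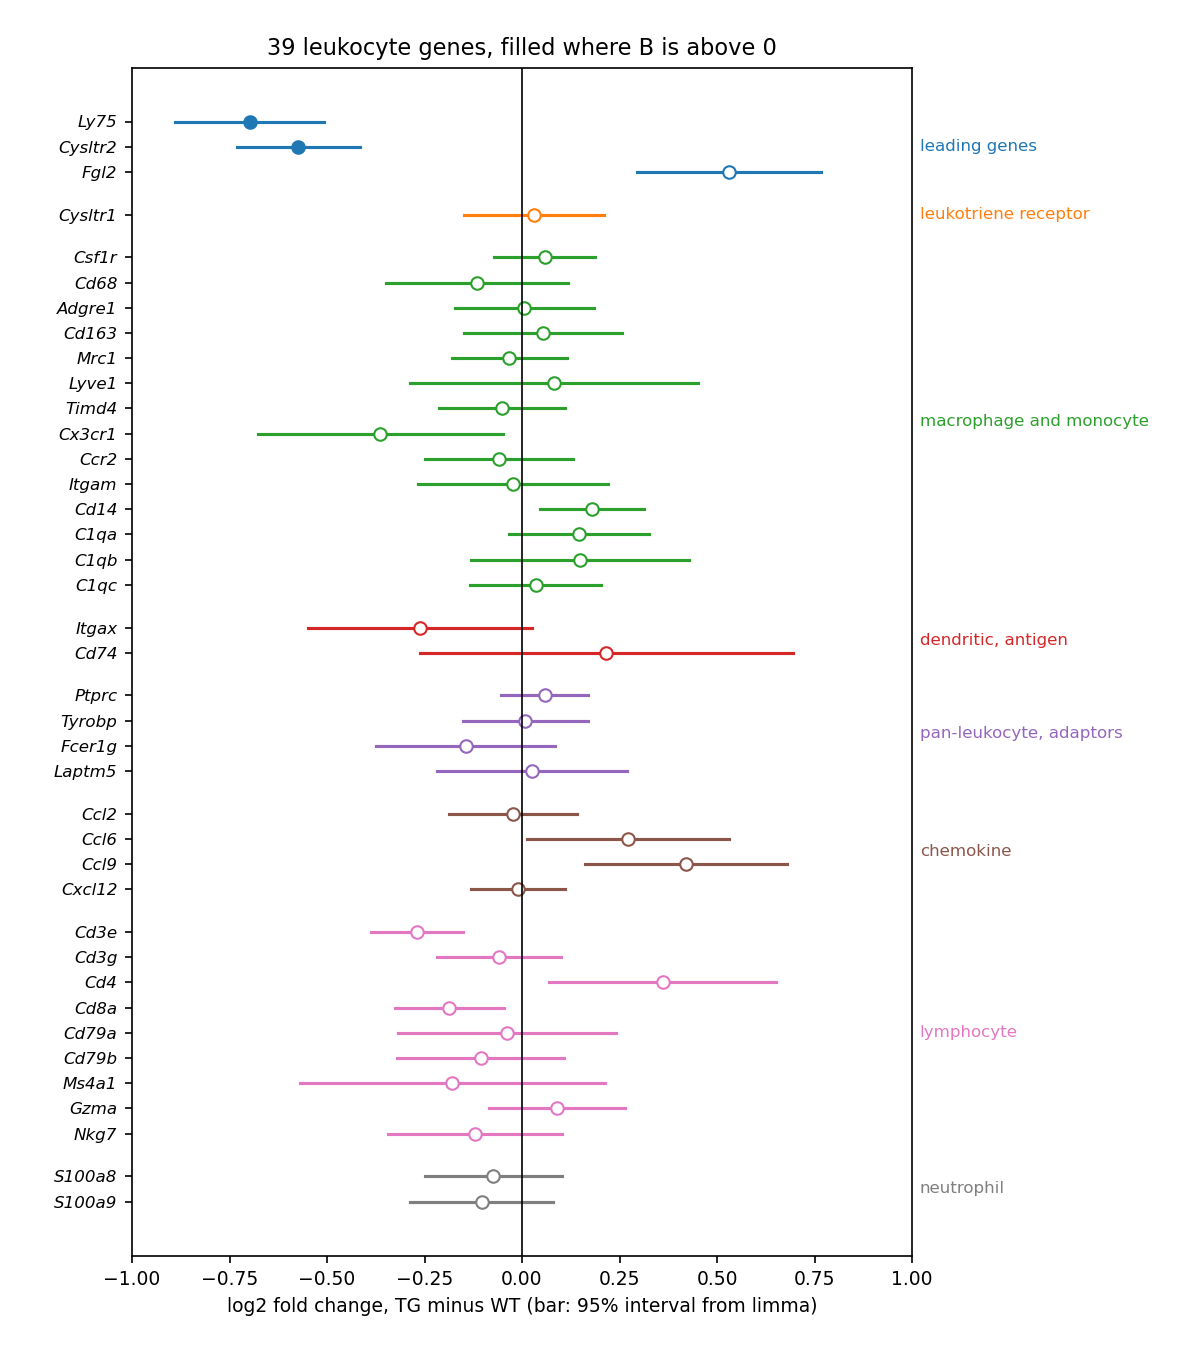
Log2 fold change (TG minus WT) of each member with its 95% confidence interval, grouped by role; filled points passed B above 0. Ly75 (-0.70) and Cysltr2 (-0.57) lie to the far left, Fgl2 (0.53) to the far right, and the macrophage genes around a median of 0.020.

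The dendritic and antigen-presentation members were Itgax and Cd74, and neither had an unadjusted p under 0.05. Itgax (CD11c), the integrin of dendritic cells, was dim at 5.49, 5.91 and 5.52 in WT and 5.38, 5.33 and 5.41 in TG, apart and lower with a log2 fold change of -0.26 (SE 0.12), which was -0.13 without WT replicate 2, the highest mouse. Cd74, the invariant chain of MHC class II, was at 7.31, 8.09 and 7.54 in WT and at 7.79, 7.83 and 7.96 in TG (log2 fold change 0.22, SE 0.20). Its WT range of 0.78 was the widest of any member, with WT replicate 2 above all TG mice, and its log2 fold change was 0.048 without WT replicate 1 and 0.44 without WT replicate 2 (unadjusted p = 0.00618 by limma).

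Of 9 lymphocyte members 3 had an unadjusted p under 0.05, of which 2 were lower and 1 was higher, beside 8.76% and 6.65% of all genes. Cd3e, a chain of the T cell receptor complex, was at 6.86, 6.84 and 6.91 in WT and at 6.61, 6.62 and 6.57 in TG, a log2 fold change of -0.27 (SE 0.049, B = -0.46, adjusted p = 0.221 by limma). Cd8a, the co-receptor of cytotoxic T cells, was at 6.61, 6.56 and 6.50 in WT and 6.43, 6.32 and 6.36 in TG (log2 fold change -0.19, SE 0.058, unadjusted p = 0.0171 by limma). Both were apart and lower, but Cd4, the co-receptor of helper T cells, was apart and higher, at 5.82, 5.59 and 5.77 in WT and 6.20, 5.85 and 6.21 in TG (log2 fold change 0.36, SE 0.12, unadjusted p = 0.0230 by limma), from a dim probe set below the olfactory 95th percentile. The p of Cd8a exceeded 0.05 without WT replicate 1 or TG replicate 2, and that of Cd4 without WT replicate 2, TG replicate 1 or TG replicate 3. Another chain of the same receptor complex, Cd3g, had a log2 fold change of -0.060 (SE 0.065). The B cell genes Cd79a and Cd79b (antigen receptor chains) and Ms4a1 (CD20) were at -0.038, -0.11 and -0.18 (SE 0.12, 0.088 and 0.16), and the cytotoxic granule genes Gzma and Nkg7 at 0.089 and -0.12 (SE 0.072 and 0.092). The median of the 9 was -0.11, and 3 of them lay above the olfactory 95th percentile.

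The neutrophil genes S100a8 and S100a9, which encode the calprotectin subunits, were at -0.073 (SE 0.073) and -0.10 (SE 0.075), with overlapping groups and both probe sets below the olfactory 95th percentile.

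Among the chemokine members, Ccl6 and Ccl9 had an unadjusted p under 0.05 and were higher in TG. Ccl9, a chemoattractant of CCR1-bearing myeloid cells, was at 7.80, 7.95 and 8.09 in WT and at 8.35, 8.23 and 8.52 in TG, apart by 0.14 (log2 fold change 0.42, SE 0.11, unadjusted p = 0.00702 by limma). Ccl6, from the same chemokine family, was at 7.66, 7.72 and 7.98 in WT and at 8.05, 7.94 and 8.19 in TG, with overlap (0.27, SE 0.11, unadjusted p = 0.0417 by limma), and its p exceeded 0.05 without WT replicate 1, WT replicate 2, TG replicate 1 or TG replicate 3. Ccl2, the monocyte chemoattractant, and Cxcl12, the stromal chemokine that binds CXCR4, had log2 fold changes of -0.023 (SE 0.068) and -0.010 (SE 0.049).

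**Figure D4:**
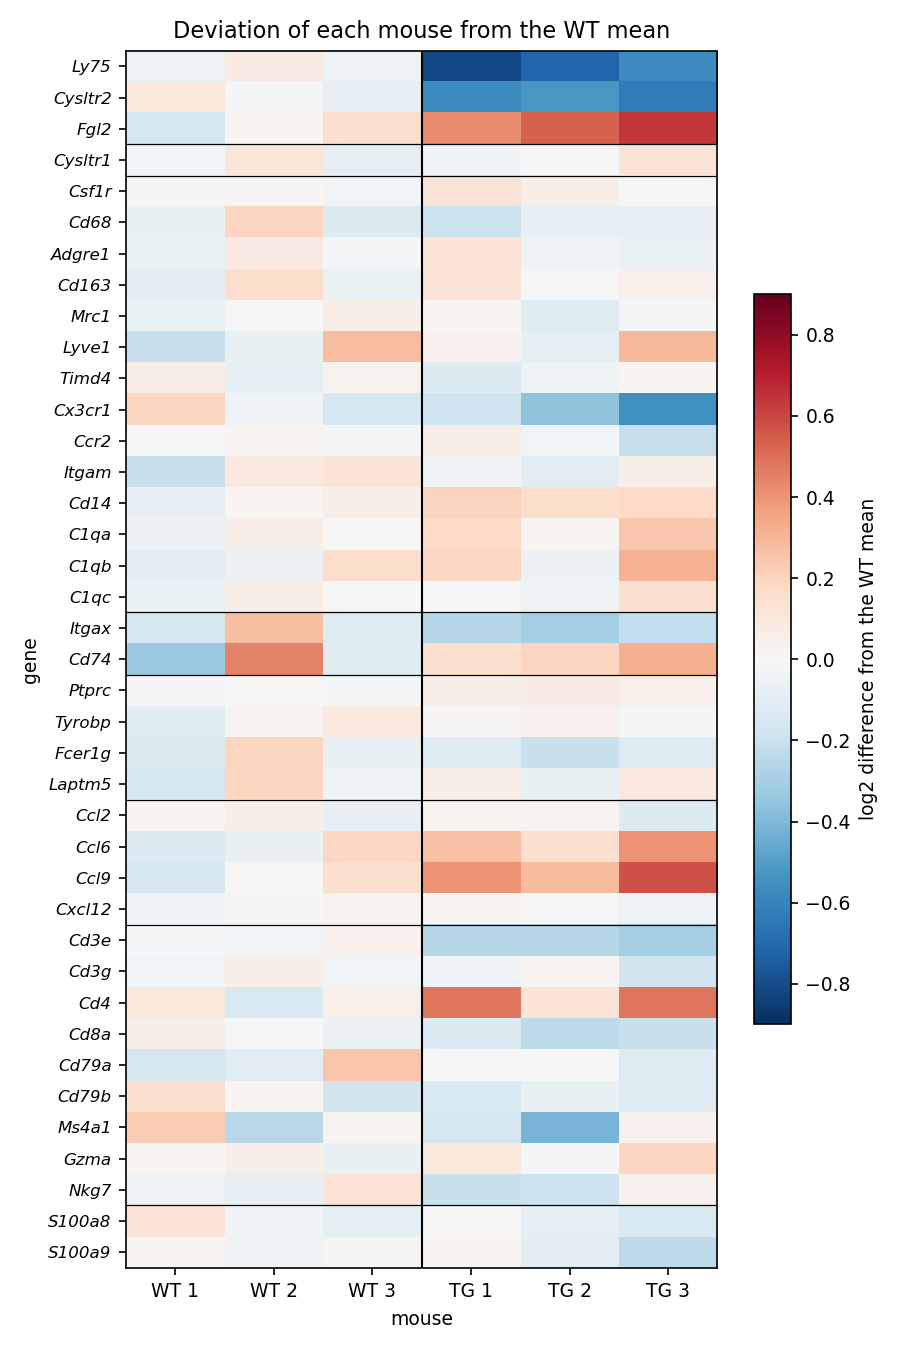
Difference of each mouse from the WT mean in log2 units, with genes by role as rows, mice as columns, red for higher and blue for lower. The TG cells of Ly75 and Cysltr2 are blue and those of Fgl2 red in all 3 mice, while Cd74 in WT replicate 2 stands above the other WT mice.

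By group separation, 6 of 39 members had every TG value below every WT value (Ly75, Cysltr2, Cx3cr1, Itgax, Cd3e and Cd8a) and 5 had every TG value above (Fgl2, Cd14, Ptprc, Ccl9 and Cd4). Of all genes 13.6% and 12.2% did so, so that 6 and 5 of 39 are close to the background. The median log2 fold change was -0.017 over the 36 members other than Ly75, Cysltr2 and Fgl2 and -0.014 over all probe sets. Genes at or below the olfactory 95th percentile had a median of -0.057 and those above it of 0.0027, so the dim members, such as Itgax, lie where the background leaned lower.

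Changes within the mouse were compared for 3 pairs of genes by the difference of their log2 values, which describes unequal change of probe sets and not levels between them. Cysltr2 minus Cysltr1, the other receptor for cysteinyl leukotrienes, changed by -0.60 between groups, from -2.59 to -2.34 in WT to -3.21 to -2.99 in TG, while Cysltr1 alone had a log2 fold change of 0.031 (SE 0.073, 95% confidence interval -0.15 to 0.21). Since the Cysltr2 probe set was dim, this difference does not show how the receptors themselves compared. Ly75 minus Mrc1 changed by -0.67, and Fgl2 minus Csf1r by 0.47. In each pair the 3 TG mice lay on 1 side of the 3 WT mice. The exact two-sided permutation p was 0.1 in each pair, which is the smallest p that 3 against 3 mice can give. The Benjamini-Hochberg value over the 3 pairs was also 0.1. The first gene of each pair was chosen with earlier results known and was itself apart between groups. Neither the separation nor the p of a pair is therefore taken as support.

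Among other genes of the leukotriene pathway, 13 of 15 were measured and none passed B above 0, with a median log2 fold change of 0.085. An unadjusted p under 0.05 was found for 3 that were higher and 0 that were lower, beside 6.65% and 8.76% of all genes. Lta4h, the leukotriene A hydrolase, was at 7.48, 7.45 and 7.59 in WT and 7.88, 7.75 and 7.82 in TG (0.31, SE 0.064). Abcc1, which exports leukotriene C, and Alox5ap, the activator of 5-lipoxygenase, were at 0.16 (SE 0.056) and 0.18 (SE 0.069), and each was apart from WT. Ltc4s, which makes leukotriene C, was apart and lower at -0.22 (SE 0.093). In the mannose receptor family, Ly75 was the 1 gene of 4 that passed, with Mrc1, Mrc2 and Pla2r1 at -0.032, -0.024 and 0.058. Of the 8 other genes measured in the list of fibrinogen-like genes, which includes angiopoietins and the Fgl2 receptor gene Fcgr2b, none had an unadjusted p under 0.05.

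**Figure D5:**
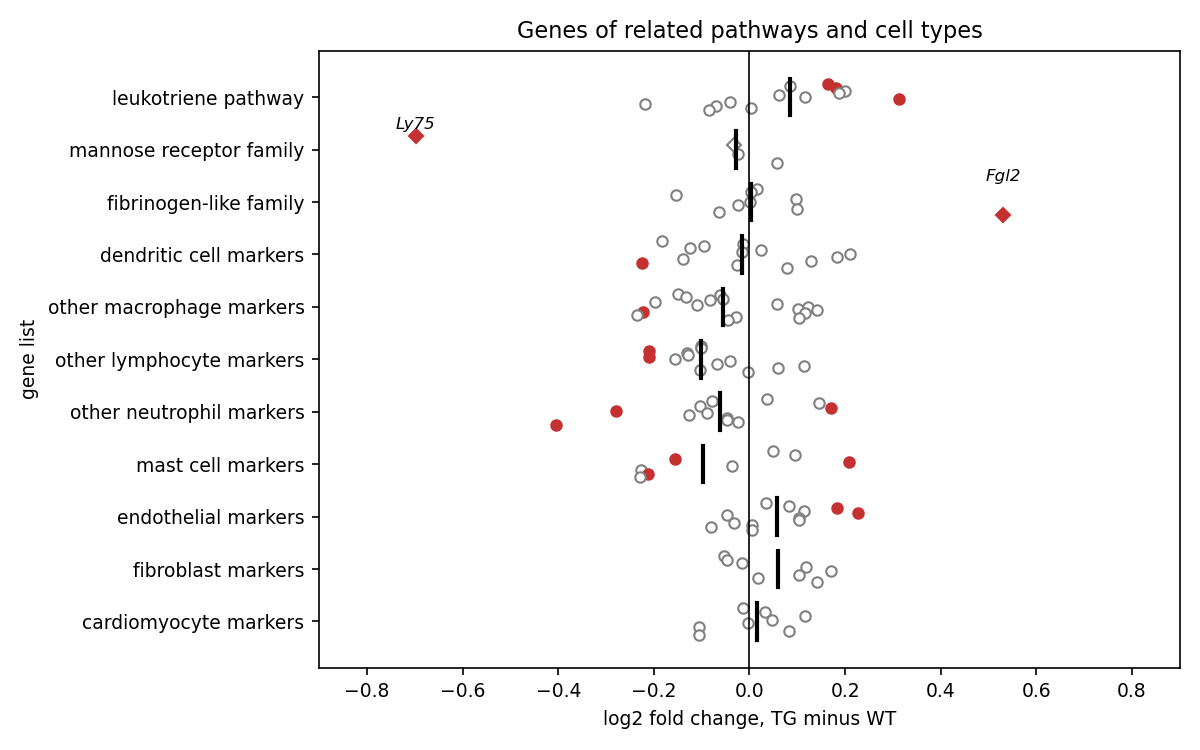
Log2 fold changes of the genes in the related lists, TG minus WT, with 1 symbol per gene and a bar at the median of each list; diamonds are members and red symbols have an unadjusted p under 0.05. Ly75 (-0.70) and Fgl2 (0.53) lie outside all other genes shown, and the medians lie between -0.10 and 0.085.

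Markers of other cells were given beside these genes, since Ly75, Cysltr2 and Fgl2 are not made by leukocytes alone. Of 13 further dendritic cell markers, 0 passed B above 0 and only Siglech, a receptor of plasmacytoid dendritic cells, had an unadjusted p under 0.05 (log2 fold change -0.22, SE 0.079), with list means of 6.49 to 6.56 in WT and 6.48 to 6.57 in TG. The dendritic markers Clec9a and Xcr1 were below the olfactory 95th percentile. Of 12 endothelial markers 0 passed B above 0, Flt1 (0.23, SE 0.072) and Eng (0.18, SE 0.063) were at an unadjusted p under 0.05, and the list means were 10.11 to 10.15 in WT and 10.17 to 10.21 in TG. Of 12 further neutrophil markers 1 lay above the olfactory 95th percentile and Ltf and Retnlg were lower (-0.28 and -0.41, SE 0.050 and 0.088). Lcn2, another neutrophil gene, was higher (0.17, SE 0.061). Of 17 further macrophage markers 1 had an unadjusted p under 0.05, the lectin gene Mgl2 (-0.22, SE 0.084), and of 13 further lymphocyte markers 2 did, Cd22 of B cells (-0.21, SE 0.056) and the granzyme gene Gzmb (-0.21, SE 0.084). Of 8 mast cell markers Hdc, which makes histamine, was higher (0.21, SE 0.066) and the Fc epsilon receptor chains Ms4a2 and Fcer1a lower (-0.21 and -0.16, SE 0.072 and 0.056) by the same measure, the latter pair below the olfactory 95th percentile. None of the genes in these lists passed B above 0, and none of the 8 fibroblast, 5 erythroid and platelet or 8 cardiomyocyte markers had an unadjusted p under 0.05. Over all genes, 8.76% were lower and 6.65% higher at an unadjusted p under 0.05, so the few such genes of each list are not read as a result about it. The list means were 5.96 to 6.05 in WT and 5.92 to 5.94 in TG for the further lymphocyte markers, 5.52 to 5.60 and 5.43 to 5.51 for the neutrophil markers, and 5.73 to 5.78 and 5.69 to 5.70 for the mast cell markers, so that in these lists each TG mouse lay below each WT mouse. Most genes of these lists were dim, with 5 of 13, 1 of 12 and 2 of 8 above the olfactory 95th percentile. The array medians were also lower in TG, at 6.89 to 6.91 against 6.93 to 6.95. With centring on the array median, the median log2 fold changes of these lists moved from -0.10, -0.062 and -0.096 to -0.051, -0.011 and -0.045. With a further quantile normalization they were -0.051, -0.0080 and -0.080. In the other direction, each TG mouse lay above each WT mouse in the list means of the endothelial markers. Their median log2 fold change was 0.058, against 0.11 with centring and 0.011 with the further quantile normalization. Each TG mouse also lay above each WT mouse in the leukotriene pathway (7.03 to 7.06 in WT, 7.10 to 7.13 in TG). The chemokine members (8.11 to 8.26 and 8.30 to 8.39) did so through Ccl6 and Ccl9 (log2 fold changes 0.27 and 0.42). Ccl2 and Cxcl12 were at -0.023 and -0.010. The mannose receptor list, which holds Ly75, was lower in each TG mouse (7.93 to 7.99 and 7.77 to 7.83). That list mean rests on Ly75 and is not a result about the family. Mrc1, Mrc2 and Pla2r1 were at -0.032, -0.024 and 0.058, each with overlapping groups. The further macrophage markers overlapped, at 7.65 to 7.67 and 7.57 to 7.67. A share over comparable lists was not computed, so separations of list means are not read as results about the cell types or pathways. The platelet gene Ppbp differed between mice of the same group, from 7.14 to 9.72 in WT and from 7.06 to 9.74 in TG. The 8 cardiomyocyte markers had list means of 13.64 to 13.67 in WT and 13.66 to 13.68 in TG, and all 8 lay above the olfactory 95th percentile. The part of these cell types in the differences of Ly75, Cysltr2 and Fgl2 was not tested.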

How the data were processed

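RNA of cardiac ventricles from 3 WT and 3 TG mice at postnatal day 17 was hybridised to arrays, 1 for each animal. Values deposited by the authors are on the log2 scale, and the submitters' processing notes name RMA (background correction, quantile normalization between arrays and probe summary). Its version was not given in the sources used here. All 35556 probe sets were used, with 0 columns left out. Groups came from the sample labels, and line and strain from the methods. Probe sets were named by the platform annotation, and coordinates and promoters are from RefSeq GRCm38.p6.

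Groups were compared by lmFit and eBayes of limma 3.58.1 (R 4.3.3) on the deposited log2 values, with p adjusted over all probe sets. Spread is that between mice, and precision is limited by the number of arrays. The script was tested on simulated data. The members and lists were chosen with earlier results of these data known. Named were all members, up to 3 genes with the smallest p of each other list, and Mir499. Genes named outside this rule, such as Xcr1, Ltc4s and Mrc2, were chosen after their values were seen. Alternatives were filters, scalings, a trend, robust moderation, array weights, a block, another assumed share and leaving out each mouse.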

Additional observations from a re-analysis of the deposited data

How the results depend on the processing

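Ly75 and Cysltr2 kept their direction in every alternative that tested them, and Cysltr2 was not tested after the filter on dim probe sets, which left 28 members. The number of members at B above 0, 2 in the report, was 4 with listed probe sets only and 4 with an assumed share of 0.05, and 0 to 2 with 1 mouse left out, with 0 without WT replicate 2. Over all probe sets, 130 passed B above 0, against 287 with an intensity trend, 714 with an assumed share of 0.05 and 29 to 112 with 1 mouse left out. An adjusted p under 0.05 was reached by 2 probe sets, against 22 without dim probe sets, Ly75 among them (adjusted p = 0.0498 by limma), 6 with listed probe sets only, 26 with the trend and 0 to 1 with 1 mouse left out. Ly75 met the filter on dim probe sets only through its WT values, so its adjusted p there is not taken as support. With the replicate block, 69 probe sets passed B above 0 and 0 the adjusted p, and Fgl2 passed (B = 0.21). Deviations of same-numbered mice from their group means correlated at 0.024, -0.00044 and 0.057. These values cannot settle whether the numbers pair the mice, and the labels do not say. Cd3e passed without dim probe sets, with listed probe sets only and with the share of 0.05. Of the members, 13 changed sign in some alternative, 0 of them with an unadjusted p under 0.05 in the report. The 3 gene pairs kept their direction throughout. Medians of the dendritic cell, mannose receptor and fibroblast lists changed sign with centring or a further quantile normalization. That of the dendritic and antigen-presentation members did so too, from -0.023 to 0.028 with centring and 0.0098 with the further normalization. The cause of these shifts was not tested.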
